A study of Mus musculus with 17 samples.

Results

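Clic5, Lhfp, Carhsp1, Mpzl1 and Deaf1, which are 5 of the 15355 genes in the table and none of them a listed astrocyte marker, were followed across the 17 libraries of the series. They were chosen because they were lower in offspring of high-fat-fed dams at weaning, among 11 such genes called there. Another 5 of the 11 (Apoe, Hepacam, Gjb6, Agt and Ttyh1) are astrocyte genes, and the last is Sirt2, a deacetylase abundant in oligodendrocytes. The libraries hold RNA that copurified with HA-tagged ribosomes from the mediobasal hypothalamus of POMC RiboTag mice, in which the tag is made in cells where the Pomc driver is or has been active. POMC neurons lie in the arcuate nucleus, where they restrain feeding. POMCRiboTag females aged 6 weeks were put on chow or on a 45% fat diet (HFD), bred 4 weeks later, and stayed on that diet while nursing, up to day 21. Offspring were sampled at postnatal day 0 (P0), with 5 chow and 5 HFD libraries, and at postnatal day 21 (P21, weaning), with 3 chow and 4 HFD libraries. All groups carry the RiboTag allele, and the labels give no animals, litters, pools or sex per library, so p-values here reflect only how far these libraries spread, which may in part be technical.

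The 5 proteins belong to separate families. Clic5 encodes a chloride intracellular channel family protein that sits at the cell cortex with ezrin and radixin, and mice that lack it lose hair-cell stereocilia and hearing. Lhfp encodes a 4-pass membrane protein named as a fusion partner in lipoma, and its relatives Lhfpl4 and Lhfpl5 serve at inhibitory synapses and in hair-cell mechanotransduction. Carhsp1 encodes a small cold-shock-domain protein that binds RNA, stabilises the Tnf message and is dephosphorylated by calcineurin. Mpzl1 encodes an immunoglobulin-domain membrane protein whose cytoplasmic tail docks the phosphatase SHP2, the product of Ptpn11. Deaf1 encodes a transcription factor with SAND and MYND domains that binds DNA at TTCG cores and is known to act on its own promoter.

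In GENCODE M21 on GRCm38, the assembly of the mm10 build, the genes lie on 5 chromosomes. Clic5 (ENSMUSG00000023959.9) is on chromosome 17 from 44188584 to 44280172, and Lhfp (ENSMUSG00000048332.13) on chromosome 3 from 53041528 to 53261679. Carhsp1 (ENSMUSG00000008393.9) is on chromosome 16 from 8658580 to 8672155, Mpzl1 (ENSMUSG00000026566.15) on chromosome 1 from 165592240 to 165634538, and Deaf1 (ENSMUSG00000058886.9) on chromosome 7 from 141297180 to 141327690. All 5 are annotated as protein-coding. Only Lhfp shares exonic bases with another annotated gene, 4.46% of its own with the antisense model Gm42901, and whether reads were counted by strand is not stated.

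The sequences before their start sites are shown because Deaf1 binds a short core that can be counted in them. That the 5 genes were low in the same 4 libraries is how they were chosen, and it gives no ground to expect a shared sequence. RefSeq's start windows (GRCm38.p6) matched all 5 genes, with a pair of windows for Deaf1. The stretches below are those parts of the 250 bases before a start that lie outside annotated UTRs, read 5′ to 3′ on the gene's strand. Capitals mark the Deaf1 core TTCG, the GC box GGGCGG and the CCAAT box, each on either strand.
Deaf1 (chr7:141327726-141327887, minus strand): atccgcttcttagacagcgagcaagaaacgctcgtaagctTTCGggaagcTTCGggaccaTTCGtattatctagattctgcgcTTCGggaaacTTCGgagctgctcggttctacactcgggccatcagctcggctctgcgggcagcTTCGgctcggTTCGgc
Mpzl1 (chr1:165634542-165634791, minus strand): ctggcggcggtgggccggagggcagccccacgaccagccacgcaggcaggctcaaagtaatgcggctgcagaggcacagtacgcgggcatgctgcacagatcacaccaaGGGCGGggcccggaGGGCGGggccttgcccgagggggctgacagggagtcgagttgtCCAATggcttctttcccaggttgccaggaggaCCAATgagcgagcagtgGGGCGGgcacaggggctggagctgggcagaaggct
Carhsp1 (chr16:8672156-8672403, minus strand): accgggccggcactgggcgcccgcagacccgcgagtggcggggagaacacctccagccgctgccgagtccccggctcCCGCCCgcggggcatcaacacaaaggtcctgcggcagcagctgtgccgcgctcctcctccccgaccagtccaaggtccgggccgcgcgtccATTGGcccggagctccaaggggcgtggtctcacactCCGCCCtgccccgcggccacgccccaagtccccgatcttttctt
Lhfp (chr3:53041297-53041527, plus strand): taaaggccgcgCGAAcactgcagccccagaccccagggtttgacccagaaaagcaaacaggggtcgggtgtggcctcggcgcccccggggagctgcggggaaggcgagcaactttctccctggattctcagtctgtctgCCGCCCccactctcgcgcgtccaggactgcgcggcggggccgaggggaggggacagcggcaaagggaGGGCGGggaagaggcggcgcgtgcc
Clic5 (chr17:44188322-44188571, plus strand): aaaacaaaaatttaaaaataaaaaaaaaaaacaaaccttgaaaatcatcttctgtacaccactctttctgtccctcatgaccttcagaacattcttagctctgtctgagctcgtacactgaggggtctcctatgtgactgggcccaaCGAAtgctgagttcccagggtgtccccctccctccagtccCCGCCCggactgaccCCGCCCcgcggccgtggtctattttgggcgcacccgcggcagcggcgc

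The printed Deaf1 stretch of 162 bases holds 7 TTCG cores, and the whole 250 bases before that start hold 9. No other of the 32851 RefSeq start windows held as many; the next held 7, and 38.7% held at least 1. A match describes these letters only and does not show binding. The Lhfp and Clic5 windows held 1 core each, while Mpzl1, Carhsp1 and the other Deaf1 window held 0. Mpzl1 held 3 GC boxes and 2 CCAAT boxes, Carhsp1 held 2 and 1, and Lhfp and Clic5 held 2 GC boxes each and no CCAAT box. The Deaf1 window shown held neither, and its other window held 2 GC boxes. Of all windows, 32.7% held a GC box and 33.8% a CCAAT box. None of the 5 genes had TATAAA in these bases, which 12.4% of all windows held.

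**Figure D1:**
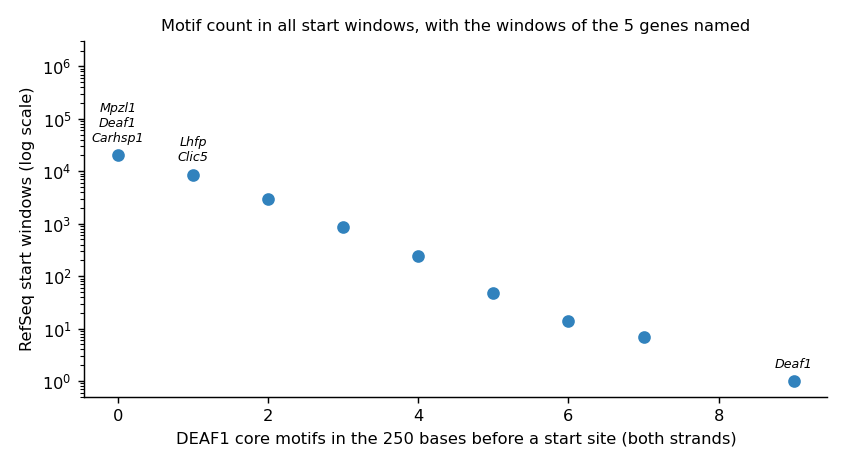
Number of RefSeq start windows (vertical axis, log scale) by the number of Deaf1 core motifs in the 250 bases before the start (horizontal axis). One Deaf1 window stands alone at 9 motifs, Lhfp and Clic5 lie at 1, and Mpzl1, Carhsp1 and the other Deaf1 window at 0.

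Libraries held from 22.4 to 37.1 M reads in the genes of the table. Values are in CPM-like units. By library, 1 read equals 0.0275 to 0.0460 of them, and a value of 0 would allow up to 3 reads, or 0.0826 to 0.138 units, by counting error alone. Levels differed widely between the genes. Per kilobase of exon, chow P0 libraries held 68.5 ± 18.3 units of Deaf1, 61.8 ± 8.85 of Carhsp1, 56.5 ± 8.46 of Mpzl1, 9.61 ± 1.73 of Lhfp and 0.118 ± 0.151 of Clic5 (mean ± SD, n = 5). In HFD P21 libraries, on the same per-kilobase scale, Deaf1 was at 13.8 ± 1.21, Carhsp1 at 13.001 ± 0.855, Mpzl1 at 10.8 ± 1.46, Lhfp at 3.28 ± 0.874 and Clic5 at 0.0606 ± 0.0193 (n = 4).

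Clic5, the actin-cortex protein, was at 3.32 units or less in every library outside chow P21. At P21 it was at 5.64, 6.69 and 5.15 units in the 3 chow libraries, which is 191, 243 and 112 reads. In the 4 HFD libraries it was at 0.46, 0.33, 0.64 and 0.70, or 13, 10, 19 and 21 reads. The lowest chow library was 7.36 times the highest HFD library. At P0 the 5 chow libraries were at 0.32, 3.32, 1.00, 0.52 and 0.04 and the 5 HFD libraries at 0.64, 0.64, 0.67, 0.20 and 0.03. The P0 diets overlapped, and chow replicate 2, with 83 reads, was the highest P0 library.

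Lhfp, the 4-pass membrane protein, was at 38.2, 42.5 and 53.5 units in the chow P21 libraries and at 14.03, 23.4, 15.03 and 14.6 in the HFD P21 libraries. Its HFD mean was 37.5% of the chow mean, and HFD replicate 2 was the highest of its group. At P0 it was at 64.5, 44.0, 45.4, 48.2 and 43.4 in chow and at 80.4, 74.1, 69.4, 66.7 and 34.9 in HFD libraries. Of the HFD P0 libraries 4 lay above every chow P0 library, and HFD replicate 5 lay below them all.

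Carhsp1, the RNA-binding protein, was at 75.3, 74.0 and 109 units in the chow P21 libraries and at 35.7, 40.5, 35.0 and 37.4 in the HFD P21 libraries. Mpzl1, the SHP2 docking protein, was at 71.4, 76.0 and 101 in chow and at 34.5, 45.9, 37.3 and 35.4 in HFD libraries of that age. In both genes chow replicate 3 was the highest library and the diets did not overlap. At P0 Carhsp1 was at 147, 165, 167, 210 and 194 in chow and at 164, 144, 195, 182 and 200 in HFD libraries. Mpzl1 was at 182, 170, 189, 220 and 243 in chow P0 and at 199, 173, 206, 197 and 233 in HFD P0 libraries. The diets covered nearly the same range at P0 in both genes.

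Deaf1, the TTCG-binding factor, was at 122, 128 and 110 units in the chow P21 libraries and at 60.9, 68.0, 56.3 and 57.2 in the HFD P21 libraries. It had the smallest gap of the 5 by ratio of means, 1.98-fold, against 10.9-fold for Clic5, and chow replicate 3 was here the lowest chow library. At P0 it was at 359, 409, 251, 268 and 216 in chow and at 533, 385, 462, 422 and 219 in HFD libraries. The P0 diets overlapped, and HFD replicate 5 was again the low one.

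**Figure D2:**
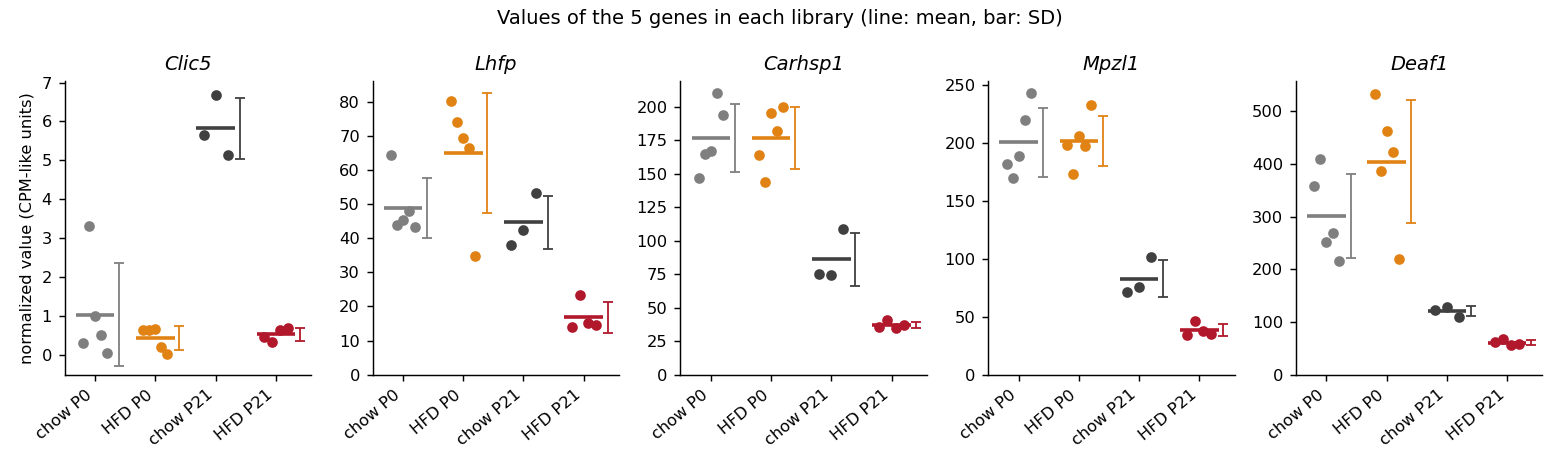
Value of each gene in each library (vertical axes, CPM-like units, 1 panel per gene) by diet and age; points are libraries, lines group means and bars SD. In all 5 panels the HFD P21 points lie below the chow P21 points, and only in Clic5 is chow P21 the highest group.

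The order of the groups differed between the genes. In Carhsp1, Mpzl1 and Deaf1 the P0 groups were highest and overlapped, chow P21 was lower without overlap, and HFD P21 was lowest without overlap. The place of HFD P21 below chow P21 follows from how the genes were chosen. The share of all genes without overlap between chow P0 and chow P21 was not computed, so that step is not set apart from other genes. Lhfp overlapped between HFD P0, chow P0 and chow P21, and stood lower in HFD P21 alone. Clic5 was highest in chow P21, while chow P0, HFD P21 and HFD P0 overlapped.

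The comparison of HFD with chow at P21 chose the genes, so its values describe them and are not tested here. The log2 differences of value + 1 were -2.16 for Clic5 (SE 0.31), -1.38 for Lhfp (SE 0.23), -1.17 for Carhsp1 (SE 0.18), -1.09 for Mpzl1 (SE 0.18) and -0.98 for Deaf1 (SE 0.14). Clic5 depends on the pseudocount, with -3.26 when 0.1 is added in place of 1. Across all 14070 genes tested at P21, 0.0782% were called lower with limma and 7.78% had HFD libraries wholly below chow, as all 5 genes did. Clic5 passed the filter on low values through its chow libraries alone. Just inside the threshold were Mpzl1, Lhfp and Sirt2 (limma adjusted p = 0.0433, 0.0438 and 0.0439), and just outside were Fgfr3, Dazap2 and Gm2a (0.0501, 0.0502 and 0.0502).

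The calls that defined the genes rested on single libraries more than their differences did. None of the 5 passed when chow library 2, HFD library 1 or HFD library 4 was dropped. Over all tested genes limma then called 6, 3 and 7, none of them lower, against 11 lower with all libraries. The median difference of the 5 genes was -1.27, -1.15 and -1.17 there, against -1.17 with all libraries. Dropping chow library 3 left 2 past the threshold (median -1.04), HFD library 3 again 2 (-1.14), chow library 1 left 3 (-1.25) and HFD library 2 all 5 (-1.21). In the same order 3, 6, 37 and 14 of all tested genes were called lower. With no filter on low values 3 passed, with edgeR's quasi-likelihood test on recovered reads 3 also, and with all 4 groups in 1 limma fit 4 did. Over all genes 6, 5 and 18 were called lower there. With replicate number as a block, which at P21 also sets HFD library 4 aside, 0 of the 5 passed, and 1 gene of all was called lower.

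Markers of glia and vessels were lower in the same HFD P21 libraries. The summed level of the 14 astrocyte markers, among them Gfap and Aqp4, lay between 3295 and 5324 units in chow and between 1789 and 2925 in HFD libraries, with all 14 below 0 (median log2 difference -0.85). The 14 oligodendrocyte markers lay between 8353 and 18561 in chow and between 4052 and 7451 in HFD libraries (all 14 below 0, median -1.098). The 12 microglia markers lay between 370 and 636 and between 238 and 339 (all 12 below 0, median -0.84). Myelin basic protein, Mbp, was still at 1924 units on average in HFD libraries.

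The 14 endothelial and mural markers summed to between 184 and 262 in chow libraries and to between 94.4 and 173 in HFD libraries, without overlap, with 12 of 14 below 0 (median -0.88). The 9 fibroblast markers overlapped (108 to 189 and 72.0 to 136, all 9 below 0, median -0.62), as did the 8 choroid plexus, ependymal and tanycyte markers (43.5 to 80.1 and 25.3 to 52.3, 7 of 8 below 0, median -0.75). The 9 POMC-neuron markers were at 5074 to 12851 in chow and 10329 to 13304 in HFD libraries, with 8 of 9 above 0 (median 0.72). The 12 markers of other neurons were at 1120 to 1688 and 1733 to 2261, without overlap, with 8 of 12 above 0 (median 0.36). No gene of these lists was at 0 in every library of a P21 group. Of these lists' genes 1 passed the limma test over all genes, the POMC-neuron marker Cartpt, which rose; the 5 called astrocyte genes named above stand in a list of their own. The median gene was at -0.02. The part of the cell types in the differences of the 5 genes was not tested. These libraries are pull-downs from whole tissue pieces. In them, fewer cells of a type, less RNA per cell and a smaller share of copurified RNA from cells without the tag cannot be told apart.

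**Figure D3:**
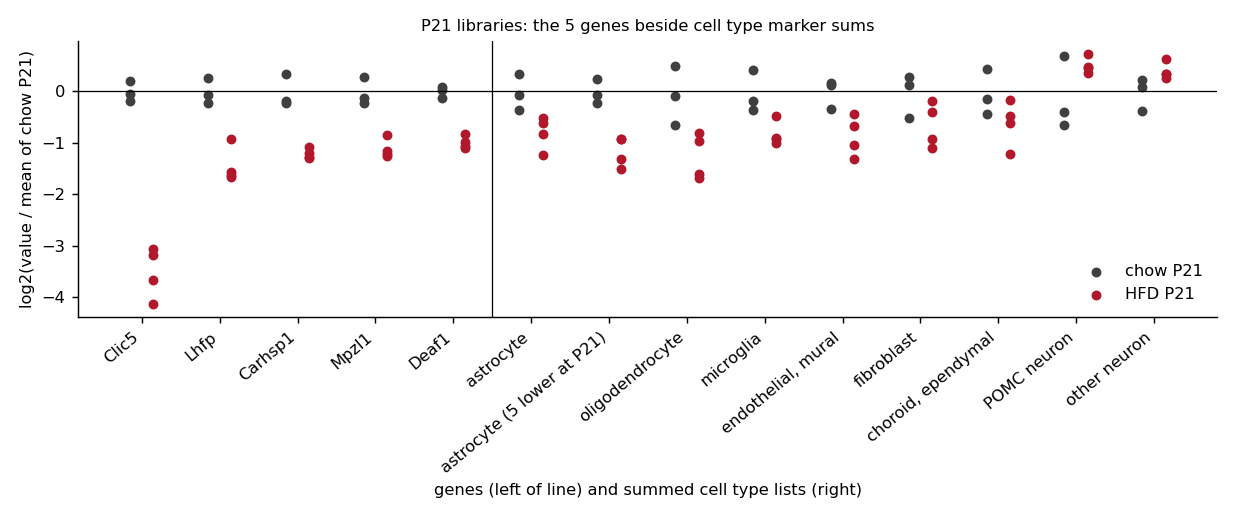
Each P21 library's value of the 5 genes (left) and of the summed cell type lists (right), as log2 of the ratio to the mean of the chow P21 libraries (vertical axis); points are libraries, colored by diet. The HFD points of Clic5 lie farthest down, those of all 5 genes and of the glial sums lie below 0, and the HFD points of the neuron sums lie above 0.

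The P0 libraries played no part in choosing the genes, and their comparison asks whether the difference was present at birth. None of the 4 genes tested there passed, where limma called 0.291% of 14086 genes (0.0071% higher, 0.284% lower). In none of the 4 were the diets free of overlap, as they were in 2.45% of all genes (1.71% with HFD below chow). Carhsp1 was at 0.0033 (SE 0.14, limma adjusted p = 0.996) and Mpzl1 at 0.012 (SE 0.14, limma adjusted p = 0.989). Both changed sign when single libraries were left out, and Carhsp1 also with rescaled columns, where it was at -0.0028. Lhfp was at 0.36 (SE 0.21, limma adjusted p = 0.631) and Deaf1 at 0.41 (SE 0.23, limma adjusted p = 0.626), both higher in HFD offspring, the opposite side from P21. Without HFD replicate 5 they were at 0.57 and 0.61 and did not pass. That library had a POMC-neuron marker sum of 1695, against 284 to 488 in the other HFD P0 libraries and 339 to 1921 in chow, and the part of this in the differences was not tested. Clic5 was too low to be tested; with no filter on low values it was at -0.34 (SE 0.34, limma adjusted p = 0.827).

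**Figure D4:**
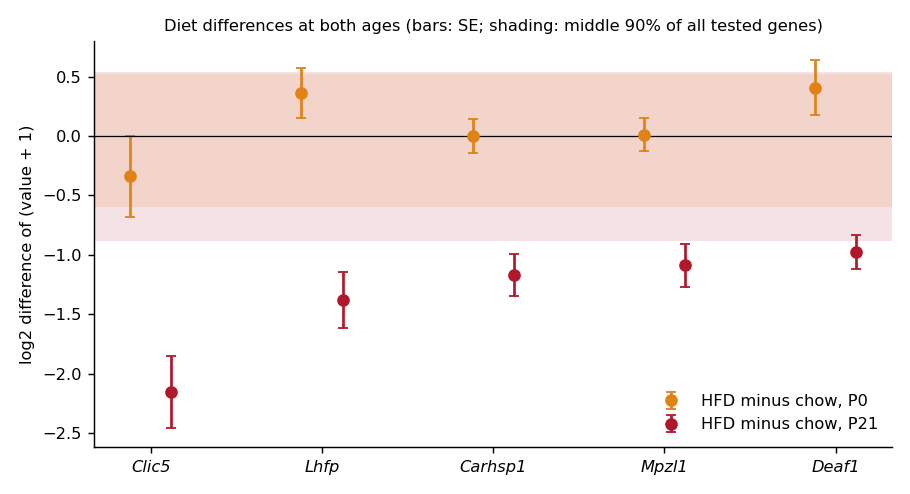
Log2 difference of value + 1 between HFD and chow libraries at P0 (orange) and P21 (red) for each gene, with SE bars; shading spans the middle 90% of all tested genes at each age. At P0 the points lie between -0.34 and 0.41, Clic5 there from the fit with no filter, and at P21 all 5 lie below the shading.

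Between birth and weaning 4 of the 5 genes passed the filter over all libraries, 10 at P0 and 7 at P21, and all 4 were lower at P21. The HFD P21 libraries in which the genes were chosen as low enter this comparison, so its values are descriptions, with no test. Across all genes limma called 29.9% of 14315 lower with age. The log2 differences were -2.04 for Deaf1 (SE 0.21), -1.90 for Mpzl1 (SE 0.18), -1.71 for Carhsp1 (SE 0.19) and -1.099 for Lhfp (SE 0.25). In 3 of them, Carhsp1, Mpzl1 and Deaf1, every P21 library lay below every P0 library, as in 9.88% of all genes. Clic5 was left out by the filter, and without it was at 0.87 (SE 0.38).

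Within each diet, again as descriptions, the age differences were as follows. In chow offspring they were -1.28 for Deaf1, -1.27 for Mpzl1, -1.04 for Carhsp1, -0.13 for Lhfp and 1.93 for Clic5. In HFD offspring they were -2.66, -2.37, -2.21, -1.87 and 0.11. Lhfp thus differed little with age in chow offspring and Clic5 little in HFD offspring, while the mean of Clic5 in chow P21 libraries was 5.60 times that in chow P0 libraries. That chow P0 mean, 1.04 units (SD 1.32), rests mostly on replicate 2 at 3.32. Clic5 was also chosen through its high chow P21 libraries, so the ratio is imprecise and partly fixed by that choice.

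No relative or partner of the 5 genes passed the diet tests, where limma called 0.291% of all tested genes at P0 and 0.178% at P21. At such shares, 0 calls among so few partners say little about them. Of 49 listed, 41 were tested at P0 and 40 at P21, and limma called 0 at either age, as did edgeR, with 3 at P0 and 9 at P21 at an unadjusted p under 0.05. Those are 7.32% and 22.5% of the tested partners, against 9.28% and 17.01% of all tested genes. At P0 the median of the tested partners was 0.10 and at P21 -0.23. The partners with the smallest P0 p were taken within each gene's own list, not over all partners. For Clic5 they were Myo6, a myosin of stereocilia, at 0.70 and Rdx, radixin, at 0.20. For Lhfp they were Lhfpl5 at -0.49 and Lhfpl4 at 0.22. For Carhsp1 they were Ppp3ca, a calcineurin catalytic subunit, at -0.28 and Lin28b, a fetal RNA-binding protein, at -0.64. For Mpzl1 they were Ptpn11 at 0.29 and Mpzl2 at 0.83, and for Deaf1 the kinase Gsk3a at -0.66 and Xrcc5, a Ku subunit, at -0.44. Their limma adjusted p ran from 0.381 to 0.708.

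With age, 28 of 42 tested partners passed, 9 higher and 19 lower (66.7%, against 58.2% of all genes). Among the cold-shock and calcineurin genes around Carhsp1, Ybx1, an abundant cold-shock RNA-binding protein, fell by 3.79 (log2), and its chow means were 923 units at P0 and 94.7 at P21, and Lin28b fell by 1.88. Ybx2, listed at 0 in every P21 library, Csdc2, Ppp3cb and Ppp3cc also fell, while the calcineurin subunits Ppp3r1 (0.96) and Ppp3ca (0.64) rose. Of the relatives of Lhfp, Lhfpl5 rose by 2.14, and Lhfpl2 and Lhfpl4 fell by 0.72 and 0.74.

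Of 11 tested relatives and cortical partners of Clic5, Clic4 (0.66) and the scaffold Slc9a3r2 (0.34) rose, and Clic1, Slc9a3r1 and Podxl fell. Around Mpzl1, Ptpn11 rose by 0.41 while Mpzl2 and the kinase Src fell, of 6 tested. Around Deaf1, 3 of 12 rose, Xrcc5 (1.103), Sp100 and Htr1a, the serotonin receptor gene that Deaf1 is known to regulate (0.65). Its partner Lmo4 fell by 0.89, as did Gsk3b, Gmeb1, Gmeb2 and Sp140.

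The genes also varied among themselves within the P0 groups, in libraries that did not choose them. Correlations were taken on log2(value + 1) after removing each diet's mean, over 10 libraries that differ together in depth and tissue content, for 10 gene pairs. Carhsp1 and Mpzl1 varied together (Pearson r = 0.83, permutation p = 0.00387, adjusted p = 0.0349; Spearman rho = 0.78, permutation p = 0.0111, adjusted p = 0.111). Without the 2 libraries farthest from the median r was 0.78, and it was 0.80 within chow and 0.89 within HFD libraries. Lhfp and Deaf1 also varied together (r = 0.79, permutation p = 0.00699, adjusted p = 0.0349; rho = 0.61, permutation p = 0.0648, adjusted p = 0.127). That relation rests on few libraries, with r = 0.48 without HFD replicate 5 and chow replicate 1, and 0.43 without HFD replicate 5 alone. It was 0.41 within chow and 0.96 within HFD libraries. All 4 correlations between one of the first pair and one of the second pair were negative (-0.70 to -0.50), and none passed after adjustment.

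Against the 9 cell type lists, 45 relations were computed over the same 10 libraries. They use the mean of log2(value + 1) over each list, not the sums printed beside them. Mpzl1 was low where astrocyte markers were high. In chow replicates 1 to 5 it was at 182, 170, 189, 220 and 243 units, with astrocyte sums of 1340, 1619, 1568, 1084 and 1004. The order was not strict, since replicate 3 had a higher sum and a higher Mpzl1 than replicate 1. Over all 10 libraries r was -0.89 (permutation p = 0.00075, adjusted p = 0.00967), rho -0.84 (permutation p = 0.00382, adjusted p = 0.0430), and r was -0.81 without the 2 farthest libraries, -0.97 within chow and -0.75 within HFD. The 5 astrocyte genes called at P21 gave r = -0.94 (permutation p = 0.00023, adjusted p = 0.00517) and rho = -0.90 (permutation p = 0.00088, adjusted p = 0.0198), with r = -0.89 without the 2 farthest libraries. Against the endothelial and mural list Mpzl1 had r = -0.86 (permutation p = 0.00204, adjusted p = 0.0184) and rho = -0.87 (permutation p = 0.00242, adjusted p = 0.0363), with r = -0.77 without the 2 farthest, -0.96 within chow and -0.79 within HFD.

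Deaf1 was low where POMC-neuron markers were high. Beside its chow P0 values above, in the same order, the POMC-neuron sums were 339, 477, 1073, 1371 and 1921, so the 2 libraries with the lowest sums had the highest Deaf1. In HFD replicate 5, with a sum of 1695 against 284 to 488 in the other HFD libraries, it was at 219. Over the 10 libraries r was -0.95 (permutation p = 7.00e-05, adjusted p = 0.00315) and rho -0.92 (permutation p = 0.00063, adjusted p = 0.0198), with r = -0.83 without the 2 farthest, -0.90 within chow and -0.99 within HFD. Lhfp had the same sign, with r = -0.86 (permutation p = 0.00086, adjusted p = 0.00967), rho = -0.83 (permutation p = 0.00499, adjusted p = 0.0449), r = -0.62 without the 2 farthest, -0.75 within chow and -0.96 within HFD.

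Clic5 varied with the astrocyte list at P0 (r = 0.76, permutation p = 0.00807, adjusted p = 0.0519; rho = 0.61, permutation p = 0.0641, adjusted p = 0.212), which did not pass after adjustment and was 0.48 without the 2 farthest libraries. Against that list the 5 genes thus had correlations of both signs, with Lhfp at 0.36, Deaf1 at 0.64 and Carhsp1 at -0.75, none of which passed after adjustment.

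**Figure D5:**
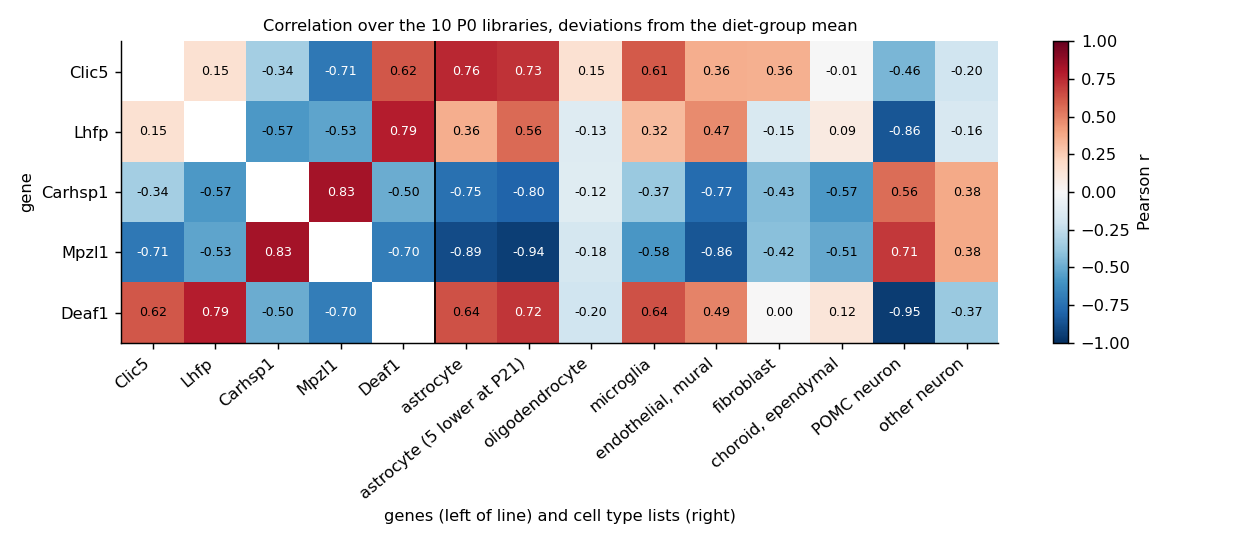
Pearson correlation (color and number) of each gene (rows) with the other 4 genes (left) and with the mean of each cell type list (right), over the 10 P0 libraries after removing each diet's mean. Carhsp1 and Mpzl1 are negative with the astrocyte list, at -0.75 and -0.89, and Lhfp and Deaf1 are negative with the POMC-neuron list, at -0.86 and -0.95.

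Over all 17 libraries, among 14015 genes compared, the nearest gene to Mpzl1 was Carhsp1 and the reverse (Pearson r = 0.99, as a description over libraries that differ in age and diet). Next came Kctd5 and Sppl2b for Carhsp1 (r = 0.98 and 0.97) and Tspan4 and Kctd5 for Mpzl1 (0.99 and 0.98). The nearest to Deaf1 were Traf4, Asxl3 and Snn (0.98, 0.98 and 0.97), and to Lhfp Serp1, Limd1 and Lypd6b (0.95, 0.94 and 0.94). The nearest to Clic5 were Gramd3, the lysophosphatidic acid receptor gene Lpar1 and the astrocyte connexin gene Gja1 (0.86, 0.85 and 0.83). Clic5 itself correlated with the other 4 genes between -0.22 and 0.08, while those 4 correlated with each other between 0.84 and 0.99. The P21 libraries that chose the genes enter these values, so they do not show shared variation apart from age and that choice. In the P0 libraries alone, Carhsp1 and Mpzl1 were negative with Lhfp and Deaf1 (-0.70 to -0.50).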

How the data were processed

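RNA pulled down with tagged ribosomes was sequenced as single reads of 50 bases, per the labels' protocols. Per the submitters' processing notes the build is mm10 and the tools named are TopHat2 2.0.13, HTSeq 0.6.1, Picard 1.80, edgeR and FastQC, with no options stated. In the deposited table the authors give normalized signal in CPM-like units rounded to 2 decimals, not counts, for 15355 genes. At least 99.99% of non-zero values in every library lie on whole reads within the rounding (0.005 units), which gave the reads and depth per library.

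For each comparison, log2(value + 1) was modelled with limma 3.58.1 (R 4.3.3), using a trended prior, Benjamini-Hochberg adjustment over all tested genes and a threshold of 0.05, two-sided. Genes entered a test if they exceeded 1 unit in a number of libraries equal to the smaller group's size or more. The age comparison pooled the diets; since it holds the P21 libraries that chose the genes, its values for the 5 genes are given as descriptions, although a test had been planned. edgeR 4.0.16 was run on recovered reads, an alternative chosen after seeing the data. Correlation p-values come from 100000 permutations of the P0 deviations across both diets, not within each diet. Because the diet means had been removed first, these p-values may be somewhat too small. Fits were also run on simulated counts, with the same spread set for every gene and no shared tissue differences. Genes as low as Clic5 were not changed there, so that run does not cover these points. Named were the 5 genes, in each partner list those with the smallest p at P0 or past the threshold, the 3 genes most like each member, and the genes at the edges of the rule. The genes and lists were chosen with earlier results of these data known. The result of 1 partner gene is not reported here.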

Additional observations from a re-analysis of the deposited data

Results flagged for a closer look

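Of 15 sets of libraries examined, that is each gene in chow P0, HFD P0 and HFD P21, 2 held a library far from the rest, and chance flags about 1 set in 20. Both were in Lhfp. Chow P0 replicate 1 was at 64.5 units against 43.4 to 48.2 in the other 4, with a gap of 0.77 of the range (critical value 0.71). HFD P21 replicate 2 was at 23.4 units against 14.03 to 15.03 in the other 3, a gap of 0.89 of the range (critical value 0.829), and was still below every chow P21 library. Groups of 3 were not examined.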

How the results depend on the processing

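The median P21 difference of the 5 genes, whose direction their choice fixes, lay between -1.27 and -1.04 with 1 library left out. The age difference of Lhfp, a description, was -0.13 within chow. The log2 difference of Clic5 at P21 was -3.26 with a pseudocount of 0.1 and -3.46 with edgeR. At P0 none of the 4 genes passed under any of 17 alternatives; Carhsp1 changed sign with columns rescaled (-0.0028) and with single libraries left out (-0.060 to 0.074), as did Mpzl1 (-0.044 to 0.084). Over all genes, limma called 41 at P0, 10 with all 4 groups in 1 fit and 18 to 135 with 1 library left out. At P21 it called 25, against 16 with no filter, 47 with columns rescaled, 42 with a robust prior, 15 with edgeR on recovered reads and 3 to 51 with 1 library left out, and with age 8326, against 5251 within chow. Without chow replicate 1 at P21, 1 partner gene passed. Whether the replicate numbers shared by the groups pair the libraries is not stated. Same-numbered P0 libraries correlated from -0.17 to 0.49 and differently numbered ones from -0.48 to 0.38. Not every library correlated best with its own number. These ranges overlap and cannot decide whether the libraries are paired. With the replicate block 104 genes were called at P0 and 3 at P21, with 0 of the 5 past the threshold at either age. At P21 no chow library shares a number with HFD replicate 4, so the block sets that library aside. The blocked differences of the 5 genes there equal those without it (Clic5 -2.21, Deaf1 -0.95). What else lies behind these changes was not tested. At 10 to 21 reads per HFD P21 library, Clic5 is the gene whose level is least precise.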
